A study of Mus musculus with 4 samples.

Results

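Leukocytes leave the marrow, roll on vessel walls and cross them with the help of a small set of surface proteins, and 9 genes of that set are described here across the marrow cells of 4 mouse genotypes: Itgam, Itgal, Itgax, Itgb2, Itga4, Itgb1, Itgb7, Selplg and F11r. They were taken by name as leukocyte integrin and selectin ligand genes, with earlier results of these data known, and they are 9 of the 31053 genes in the count matrices. All 9 had UMIs in every library. The single-cell 3′ RNA libraries were made from bone marrow of the femur and tibia after depletion of red blood cells, in mice labelled 12 months old, with 1 library per genotype. All mice were on the C57/B6 background. TWT mice were wild type at Il6, mDia1 and miR146a. IL-6 KO mice were IL6-/-, mDia1+/+ and miR146a+/+, DKO mice were IL6+/+, mDia1-/- and miR146a-/-, and TKO mice were null at all of these loci. The study used the DKO genotype as a model of myelodysplastic syndrome that progresses to leukemia and removed Il6 to ask what the cytokine adds. The alleles were constitutive, so lymphocytes and stroma carried them too. How many mice went into each library was not stated.

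Integrins are heterodimers of an α and a β chain, and a leukocyte shows at its surface only chains that have found a partner. Itgb2 encodes β2 (CD18), which pairs with αL (Itgal, LFA-1), αM (Itgam, Mac-1) and αX (Itgax, CD11c) and binds ICAMs and complement fragments. Itga4 encodes α4, which pairs with β1 (Itgb1) as VLA-4, the receptor for VCAM-1 and fibronectin that holds cells in the marrow, or with β7 (Itgb7) as the receptor for MAdCAM-1 of gut vessels. Selplg encodes PSGL-1, the main leukocyte ligand of P-selectin, and F11r encodes JAM-A, an immunoglobulin-family protein of tight junctions, platelets and leukocytes that binds itself and LFA-1. mDia1, encoded by Diaph1, nucleates the actin filaments on which integrin movement depends, and miR-146a dampens innate immune signaling.

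miR-146a was deleted in 2 of the 4 libraries. Mature microRNAs, which libraries of this kind do not count, pair with 3′ UTRs through their seed, so the sequence is shown first, from RefSeq GRCm38.p6 at chr11:43374435-43374456 on the minus strand, with the seed (bases 2 to 8) in capitals.
mmu-miR-146a-5p: uGAGAACUgaauuccauggguu
The reverse complement of that seed, AGTTCTC, occurs in the annotated 3′ UTR of 1 of the 9 members, Itga4, and of 11.2% of 20954 genes with a 3′ UTR. Itga4 has a long 3′ UTR of 6508 bases, the longest among the members, and the match starts at base 4205; it is shown with its flanks, the seed match in capitals.
Itga4 3′ UTR site: ctcaggaatctAGTTCTCagggggtctcc
Such a match is a description of the letters and not a shown target site. In monocyte-like cells, described below, Itga4 stood at 199 CPM in TWT and 202 in IL-6 KO, which have miR-146a, and at 134 in DKO and 197 in TKO, which lack it.

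The deposited barcodes numbered 8423 to 10866 per library with 61292684 to 85145074 UMIs. Those with 500 to 4000 detected genes and no more than 15% of UMIs from mitochondrial genes entered the analysis, 6794 to 9627 per library, with a median of 4585.5 to 7053 UMIs, the highest in DKO. Levels are in CPM, the UMIs of a gene scaled to 1000000 UMIs of its cells. Diaph1 stood at 11.4 CPM in DKO and 12.4 CPM in TKO, against 163 CPM in TWT and 178 CPM in IL-6 KO, low in both libraries labelled as lacking it. Il6 had 606 UMIs in IL-6 KO and 587 in TKO, against 52 in TWT and 20 in DKO, more in the libraries labelled IL6-/- than in the others. A 3′ tag need not lie in the deleted part, so this count checks nothing, and a genotype name below means the library labelled so. Xist had 49030 UMIs in IL-6 KO and at most 7 in the others, where Ddx3y had 2729 to 3112 UMIs against 0, so the IL-6 KO library came from the other sex. Pairs of libraries shared 19 to 36 barcode sequences, at most 0.399% of the smaller.

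Cells were put into 19 classes by markers of each type and are called X-like below, and 5.15 to 8.90% of cells fitted no class. The monocyte-like class (classical monocytes, led by F13a1, Fn1, Saa3 and Ccr2) held 1742 cells in DKO, 532 in TWT, 515 in IL-6 KO and 594 in TKO, of which 106 in all lay near the limit of the gate. The non-classical monocyte-like class (led by Eno3, Ace and Treml4) held 1606, 36, 65 and 109 cells in the same order, and the macrophage-like class (led by Cxcl13, C1qb, C1qa and C1qc) 389, 36, 23 and 29. With fewer than 50 cells, a class has UMI counts but no level. A level is the sum of UMIs of a gene over the cells of a class and library, in CPM, and its interval is the exact 95% Poisson interval. A ratio of levels has an exact conditional 95% interval, and both cover counting error only. With 1 library per genotype no spread between animals and no test of a genotype could be had, so a gene was called higher or lower only by size, when it was at least 2-fold apart, reached 50 CPM in either library and had at least 30 UMIs in both together. Tags at the 3′ end carry no gene length, and levels are compared between libraries and classes for 1 gene, not between genes. A share of cells is the percent with at least 1 UMI after every cell was thinned to 2000 UMIs, with an exact binomial interval.

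**Figure D1:**
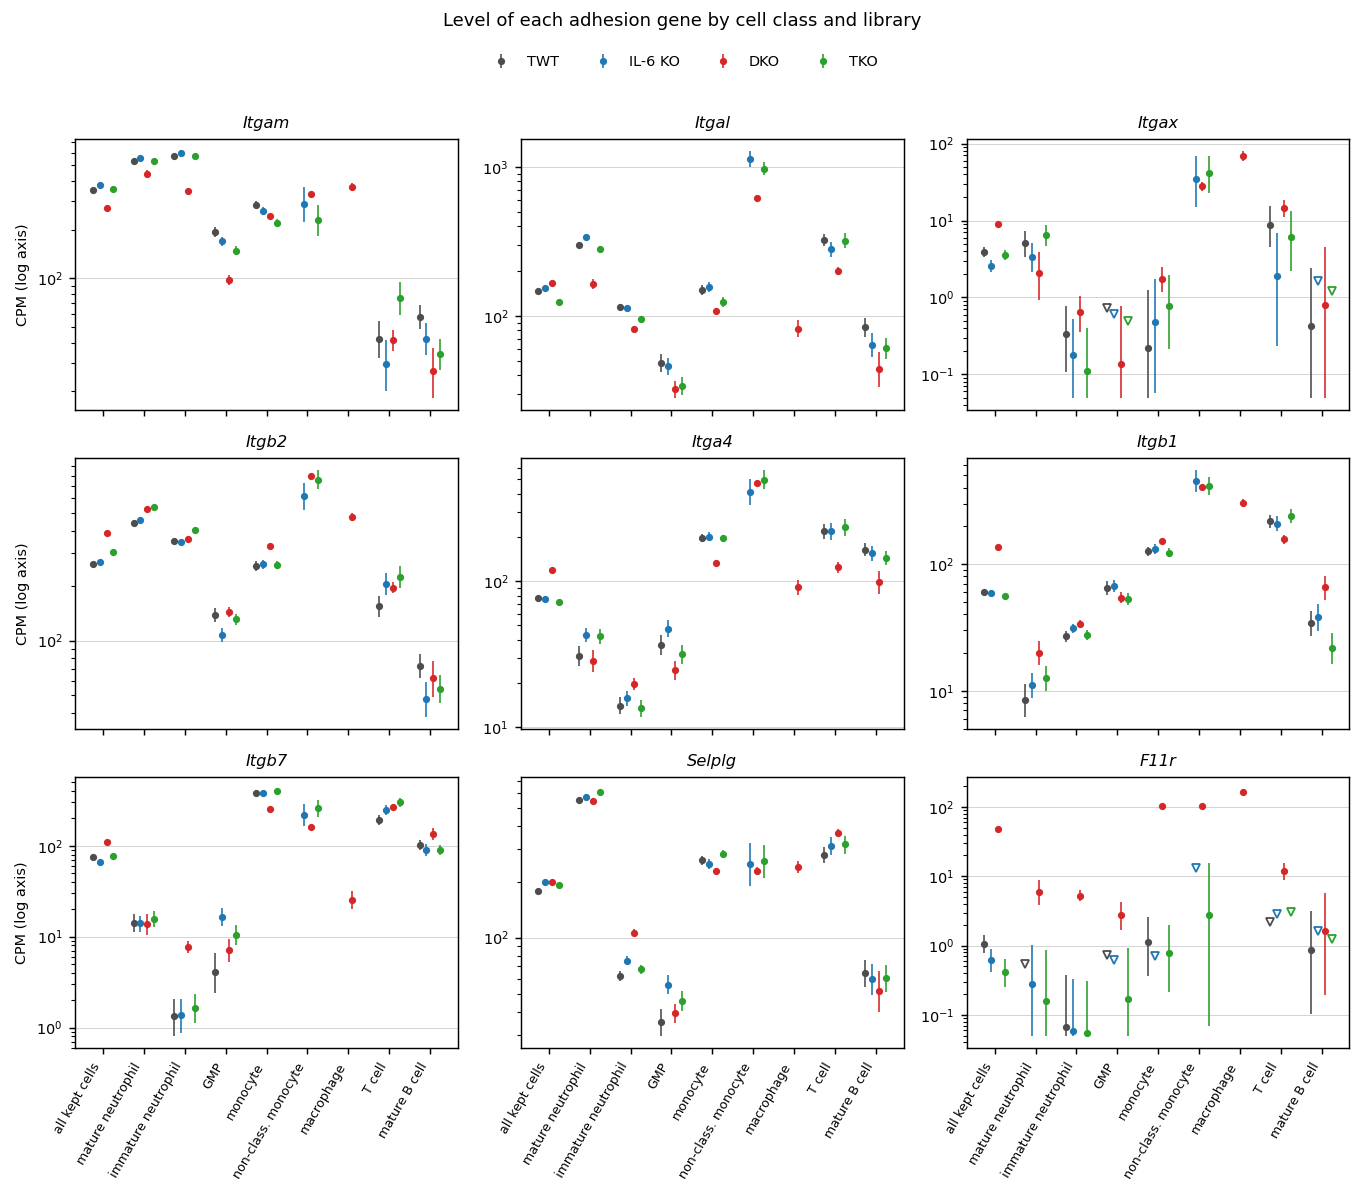
Level of each of the 9 genes (CPM, log axis) in the main cell classes, 1 point per library with its exact 95% Poisson interval; open triangles mark 0 UMIs at the 3-count floor. F11r is seen at 104 CPM in DKO monocyte-like cells against 1.11 CPM in TWT, while Itgb2 spans 256 to 328 CPM in the same class.

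F11r gave the widest gap between libraries of any member. Over all kept cells it had 3749 UMIs in DKO, 46 in TWT, 29 in IL-6 KO and 20 in TKO, or 49.0 CPM in DKO, 1.06 in TWT, 0.613 in IL-6 KO and 0.410 in TKO. The DKO level was 46.0 (34.4 to 62.9) times that of TWT and 119 (77.3 to 196) times that of TKO, but at 49.0 CPM it stayed just below the 50 CPM minimum and so was not called over all cells. In monocyte-like cells F11r had 1794 UMIs in DKO, 5 in TWT, 0 in IL-6 KO and 4 in TKO. The DKO level there, 104 CPM (99.2 to 109), was 93.2 (39.9 to 288) times that of TWT at 1.11 CPM and 134 (52.2 to 492) times that of TKO at 0.776 CPM. F11r was called higher in DKO in both comparisons, and it was the only member called among the 8 measured in each. Of all genes measured, 12.8% were called between DKO and TWT and 12.5% between DKO and TKO in these cells. 99.9% of the measured genes had a smaller DKO to TWT ratio than F11r. F11r reached the 50 CPM minimum there only in DKO, so its place among the measured genes came from the library where it was high.

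The tags came from many cells and not from a few. In DKO, F11r was found in 362 of 1707 cells, 21.2% (19.3 to 23.2) of monocyte-like cells, in 298 of 1524 cells, 19.6% (17.6 to 21.6) of non-classical monocyte-like cells and in 102 of 372 cells, 27.4% (22.9 to 32.3) of macrophage-like cells. Without thinning these shares were 56.9%, 38.0% and 58.9%, and thinning left out 35, 82 and 17 cells as too shallow. Monocyte-like cells of the other libraries gave 1 of 526 cells in TWT, 0 of 512 in IL-6 KO and 0 of 586 in TKO, and a count of 0 allows up to 0.586% and 0.512% by a limit of 3 counts, or 0.718% and 0.628% by the exact interval. Mature B-like cells of DKO, taken as the background of free RNA, had F11r in 2 of 344 cells, 0.581% (0.0705 to 2.08), with a median depth of 2695 UMIs against 9722.5 in monocyte-like cells. Their F11r level was 3.29% of the level over all cells, and that of S100a8 and S100a9, abundant neutrophil transcripts, was 5.46%. The monocyte and macrophage shares lay far above that background in DKO.

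**Figure D2:**
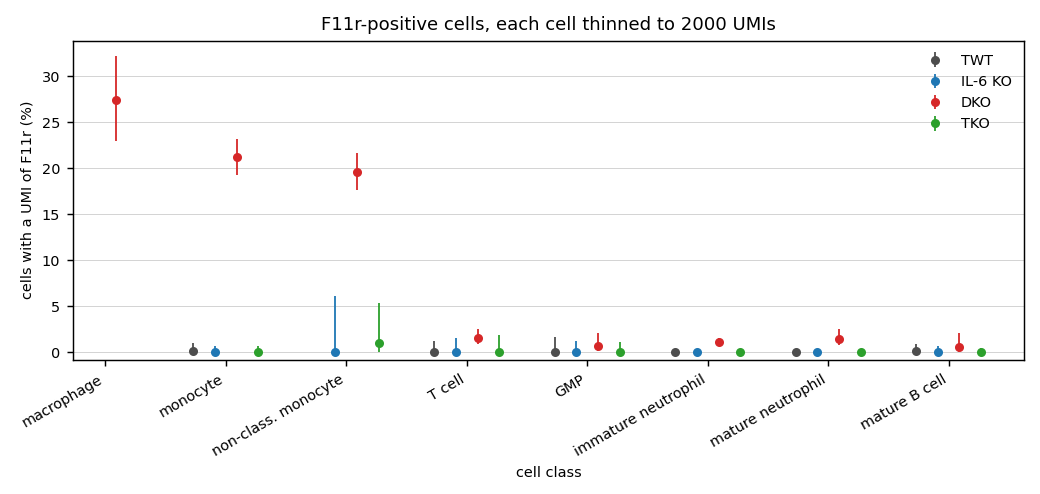
Percent of cells with an F11r UMI after thinning to 2000 UMIs, by cell class and library, with exact 95% binomial intervals; classes with fewer than 50 cells are left out. DKO monocyte-like cells stand at 21.2%, DKO non-classical monocyte-like cells at 19.6% and DKO macrophage-like cells at 27.4%, and the highest share drawn outside DKO is 0.980%, in TKO non-classical monocyte-like cells; TWT plasma-like cells, which are not drawn, reached 2.75%.

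Among DKO classes the F11r level was highest in macrophage-like cells at 165 CPM (150.1 to 180.0), followed by monocyte-like and non-classical monocyte-like cells at 104 CPM each, which did not differ beyond counting error. In non-classical monocyte-like cells the counts were 959 UMIs in DKO, 1 in TWT, 0 in IL-6 KO and 1 in TKO. In macrophage-like cells they were 477 UMIs in DKO, 0 in TWT, 0 in IL-6 KO and 1 in TKO, and the other libraries held at most 36 such cells. F11r was thus low or at 0 in the few non-classical monocyte-like and macrophage-like cells of those libraries, though the counts there bound the level only loosely. DKO T-like cells followed at 11.9 CPM (8.93 to 15.5), at least 5.43-fold above TWT and at least 3.94-fold above TKO, which had 0 UMIs each, by a floor of 3 UMIs per library. Mature neutrophil-like cells stood at 5.94 CPM, immature neutrophil-like cells at 5.27 CPM and granulocyte-monocyte progenitor-like cells at 2.74 CPM in DKO. All of these were under 50 CPM and none could be called. Mature B-like cells of DKO, the background of free RNA, stood at 1.61 CPM, not apart from the progenitor-like cells beyond counting error. The levels and the T-like ratios above were not corrected for free RNA. Outside DKO, among classes of at least 50 cells, F11r was highest in plasma-like cells in TWT and IL-6 KO, at 7.24 CPM in TWT from 20 UMIs and 4.40 CPM in IL-6 KO from 10. Megakaryocyte or platelet-like cells, too few for a level, held 5 F11r UMIs in 22 cells of TWT, 8 in 19 of IL-6 KO and 3 in 14 of TKO, more per UMI than plasma-like cells. Stem and progenitor-like cells, also too few, held 5 in 39 cells of TWT, 5 in 28 of IL-6 KO and 6 in 26 of TKO. In TKO that was 30% of the F11r UMIs, the largest share of any class.

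DKO monocyte-like cells with and without an F11r UMI differed by at most 5.95 percentage points in the share that held any of the other adhesion genes. At the same thinned depth, Itgam was seen in 42.3% of the 362 F11r-positive cells and 39.3% of the 1345 negative ones. Itgb2 was seen in 47.8% and 49.4%, and Itgb7 in 32.0% and 38.0%. Markers of other cells that express JAM-A were rare in the positive cells, with Pf4 of platelets and Epcam of epithelium in 0.276% each and Cdh5 of endothelium in 0%. The B-cell marker Cd79a was in 2.49% of positive and 0.669% of negative cells. Of 7 genes that lie near F11r, Cd244, a receptor of natural killer cells, was also highest in DKO in monocyte-like cells, at 53.8 CPM in DKO, 23.6 in TWT, 6.43 in IL-6 KO and 9.31 in TKO. The other 6 were not highest in DKO there. Usf1 stood at 69.1 CPM in TWT and 68.3 in DKO, Arhgap30 at 247 and 158, and Tstd1 at 2.23 and 0.985. The genes whose levels were most like those of F11r over 44 profiles of library and class, among 6529 genes, were Saa3 (r = 0.88) and Cxcl13 (r = 0.83), by Pearson r of log2(CPM + 1); such profiles share libraries and classes.

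All coordinates are of GRCm38, the mouse build mm10. F11r (ENSMUSG00000038235, chromosome 1, 171437535 to 171464603, plus strand) is protein-coding, as are the other members. The stretch before its annotated start is shown because it is the promoter of the member that differed most, from RefSeq GRCm38.p6 at chr1:171437311-171437534, plus strand, 5′ to 3′, with the motifs found in capitals.
F11r: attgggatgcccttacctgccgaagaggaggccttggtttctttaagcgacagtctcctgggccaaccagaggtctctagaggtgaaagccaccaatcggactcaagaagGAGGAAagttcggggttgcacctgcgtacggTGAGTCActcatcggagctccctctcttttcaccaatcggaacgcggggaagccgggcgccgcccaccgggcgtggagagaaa
3 core motifs of factors at work in myeloid cells were searched on both strands over the 250 bases before the RefSeq start, after these sequences had been seen: GAGGAA, bound by PU.1, TGANTCA, bound by AP-1, and that of NF-κB. The F11r promoter held GAGGAA once, starting 140 bases before the RefSeq start, and TGANTCA once, 109 bases before it, and no NF-κB match. Of 32851 RefSeq promoters, 23.3% held GAGGAA, 6.75% TGANTCA and 3.90% the NF-κB motif. Of the other members with a promoter in the table, Itgam and Itgb1 held GAGGAA, Itgax held TGANTCA, and Itga4 and Itgb7 held none of the 3. A match describes letters and not a bound site.

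None of the 3 chains of the β2 family that reached the minimum level in monocyte-like cells was 2-fold apart, and they did not move alike. Itgb2, the shared β2 chain (ENSMUSG00000000290, chromosome 10, 77530252 to 77565708, plus strand), stood at 328 CPM in DKO, 256 in TWT, 261 in IL-6 KO and 259.8 in TKO in monocyte-like cells. The DKO level was 1.28 (1.20 to 1.37) times that of TWT and 1.26 (1.19 to 1.34) times that of TKO, above the other libraries with intervals that did not overlap. The share of cells with Itgb2 was 49.1% in DKO, 41.1% in TWT, 42.2% in IL-6 KO and 42.8% in TKO. Its αM partner Itgam (ENSMUSG00000030786, chromosome 7, 128062640 to 128118491, plus strand) went the other way, at 242 CPM in DKO, 286 in TWT, 262 in IL-6 KO and 220.1 in TKO and a DKO to TWT ratio of 0.845 (0.793 to 0.900); against TKO the ratio was 1.10 (1.03 to 1.18). Itgal, the αL chain (ENSMUSG00000030830, chromosome 7, 127296260 to 127335138, plus strand), stood at 109 CPM in DKO, 149.6 in TWT, 157 in IL-6 KO and 125 in TKO, a ratio of 0.727 (0.666 to 0.796) to TWT and 0.872 (0.797 to 0.955) to TKO. Itgax, a marker of dendritic cells (ENSMUSG00000030789, chromosome 7, 128129547 to 128150657, plus strand), was below the minimum in this class, with 30 UMIs in DKO, 1 in TWT, 2 in IL-6 KO and 4 in TKO; its DKO to TWT ratio of 7.80 (1.30 to 318) rests on 1 UMI in TWT. Of the 8 members measured in monocyte-like cells the median log2 ratio of DKO to TWT was -0.21, beside -0.19 over all measured genes. The comparisons with TWT and with TKO share the DKO library.

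In neutrophil-like cells, where Mac-1 is most abundant, Itgam was lower in DKO at each stage. In granulocyte-monocyte progenitor-like cells it was 97.7 CPM in DKO, 193 in TWT, 169 in IL-6 KO and 149 in TKO, a DKO to TWT ratio of 0.506 (0.456 to 0.560) that came just short of 2-fold. In immature neutrophil-like cells, which hold granule genes such as Ltf and Camp, it was 349 CPM in DKO, 574 in TWT, 600.0 in IL-6 KO and 573 in TKO, a ratio of 0.608 (0.589 to 0.626), and the share of cells with Itgam was 52.8% in DKO, 69.9% in TWT, 71.9% in IL-6 KO and 70.7% in TKO. In mature neutrophil-like cells it was 446 CPM in DKO, 531 in TWT, 555 in IL-6 KO and 537 in TKO, with a ratio of 0.840 (0.793 to 0.890). The DKO values were the lowest of the 4 libraries at all of these stages, and the gap was narrowest in the mature cells. Itgal was likewise lowest in DKO, at 164 CPM in DKO, 301 in TWT, 342 in IL-6 KO and 280.5 in TKO in mature neutrophil-like cells, a ratio of 0.545 (0.499 to 0.595), and at 82.1 CPM in DKO, 115 in TWT, 113 in IL-6 KO and 96.1 in TKO in immature ones. Itgb2 did not follow either α chain. It stood at 358 CPM in DKO, 352 in TWT, 347 in IL-6 KO and 401 in TKO in immature neutrophil-like cells. In mature ones it stood at 524 CPM in DKO, 439 in TWT, 458 in IL-6 KO and 537 in TKO, with TKO above TWT and level with DKO. None of the 4 members measured in mature, the 4 in immature neutrophil-like and the 3 in progenitor-like cells was called between DKO and TWT, where 14.3%, 6.62% and 9.07% of measured genes were. In mature neutrophil-like cells the median of all measured genes was itself -0.19, and the DKO cells were deeper, with a median of 5067 UMIs against 2814 in TWT. With the gate run on cells thinned to 2000 UMIs that median became -0.095. Genes higher and lower went from 118 and 189 to 139 and 113. That alternative thinned the cells for the gate only, and the part of depth in the summed levels was not tested.

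Non-classical monocytes of the blood patrol vessels through LFA-1, which was not tested for the gated cells here. The non-classical monocyte-like class carried the highest Itgal level of any class in DKO. Itgal stood at 621 CPM in DKO, 1128 in IL-6 KO and 977 in TKO, and TWT held too few of these cells for a level. The DKO to TKO ratio was 0.635 (0.570 to 0.709), and IL-6 KO stood higher still. Itgb2 was 794 CPM in DKO, 619 in IL-6 KO and 759.8 in TKO, a DKO to TKO ratio of 1.05 (0.927 to 1.18) whose interval includes 1. Itgam was 332 CPM in DKO, 289.8 in IL-6 KO and 228 in TKO, a ratio of 1.45 (1.17 to 1.83), so αM was higher and αL lower in DKO than in TKO in this class, neither by 2-fold. S100a8 and S100a9 together went in the same order as Itgam there, at 36871 CPM in DKO, 22993 in IL-6 KO and 5294 in TKO. Under the alternatives, free RNA subtraction among them, the Itgam log2 ratio to TKO of 0.54 ran from 0.47 to 0.63. The part of neutrophil RNA in it was not tested further. Itgax reached 27.7 CPM in DKO, 35.1 in IL-6 KO and 41.3 in TKO here and 69.0 CPM in DKO macrophage-like cells. F11r, with 959 UMIs in DKO and 1 in TKO, was the 1 member of 8 measured that was called in this class, where 12.2% of measured genes were called. Here too F11r reached the minimum level only in DKO. With 1 UMI in TKO, its ratio of 37.7 (6.74 to 1489) is loosely set. The median of all measured genes between these libraries was -0.15 on the log2 scale and that of the members -0.05. DKO macrophage-like cells held Itgam at 369 CPM, Itgb2 at 475 CPM and Itgal at 82.4 CPM, and the other libraries had too few of these cells to compare.

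2 other genes, an overlapping one and a paralog, limit how the tags of Itgam and Itgb2 can be read. Gm49368 overlaps Itgam on the same strand and had 11.6 CPM in TWT and 7.94 in DKO over all cells, small beside Itgam. Itgb2l, a paralog of Itgb2, had 181 CPM in TWT and 138 in DKO, and how tags common to both were assigned is not known here.

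The α4 integrins differed between DKO and the other libraries in monocyte-like cells, and in opposite ways for the 2 β chains. Itga4 (ENSMUSG00000027009, chromosome 2, 79255426 to 79333123, plus strand) stood at 134 CPM in DKO, 199 in TWT, 202 in IL-6 KO and 197 in TKO in monocyte-like cells. The DKO level was 0.674 (0.624 to 0.729) times that of TWT and 0.680 (0.631 to 0.733) times that of TKO, and the other 3 libraries lay within a few CPM of each other. The share of cells with Itga4 was 24.6% in DKO, 30.4% in TWT, 33.8% in IL-6 KO and 33.1% in TKO. Itgb7 (ENSMUSG00000001281, chromosome 15, 102215995 to 102231944, minus strand) stood at 255 CPM in DKO, 381 in TWT, 375 in IL-6 KO and 398 in TKO, with ratios of 0.669 (0.632 to 0.708) to TWT and 0.640 (0.607 to 0.675) to TKO. The share with Itgb7 was 36.7% in DKO, 50.8% in TWT, 52.5% in IL-6 KO and 55.8% in TKO. Itgb1 (ENSMUSG00000025809, chromosome 8, 128685654 to 128733200, plus strand) was instead highest in DKO, at 152 CPM in DKO, 126 in TWT, 132 in IL-6 KO and 123 in TKO and a ratio of 1.21 (1.10 to 1.32) to TWT. All of these fell short of 2-fold. With the monocyte-like, non-classical monocyte-like and macrophage-like classes merged, the log2 ratio of DKO to TWT turned from -0.57 to 0.19 for Itga4 and from -0.46 to 0.60 for Itgal. The sequences before the annotated starts of Itga4 and Itgb7 are shown because the pair was lower together, from RefSeq GRCm38.p6 at chr2:79255176-79255425 on the plus strand and chr15:102231945-102232185 on the minus strand, 5′ to 3′. None of the motifs searched was found, so neither has capitals.
Itga4: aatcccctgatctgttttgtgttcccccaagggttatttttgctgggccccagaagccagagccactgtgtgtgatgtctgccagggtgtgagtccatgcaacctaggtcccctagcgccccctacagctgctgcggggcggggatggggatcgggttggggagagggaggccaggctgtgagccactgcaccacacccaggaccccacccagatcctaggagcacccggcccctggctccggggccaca
Itgb7: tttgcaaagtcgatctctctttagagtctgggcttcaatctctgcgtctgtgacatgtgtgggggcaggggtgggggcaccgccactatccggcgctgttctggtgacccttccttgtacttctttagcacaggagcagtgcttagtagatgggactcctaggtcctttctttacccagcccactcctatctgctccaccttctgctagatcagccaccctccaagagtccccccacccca

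Cells that held both chains of a dimer were counted after thinning. Itga4 and Itgb7 were seen together in 10.0% of monocyte-like cells in DKO, 14.1% in TWT, 17.8% in IL-6 KO and 17.2% in TKO, lowest in DKO as for the single chains. Itga4 and Itgb1 were seen together in 7.79%, 5.89%, 7.42% and 6.66% in that order. Itgam and Itgb2 were seen together in 19.5%, 17.3%, 17.4% and 14.5% in that order. The product of the single shares in DKO gave 9.04%, 6.54% and 19.6% for these pairs. For Itga4 and Itgb1 it lay just below the exact interval of the share counted, 6.56 to 9.17%. For the other pairs it lay within the interval, 8.63 to 11.5% for Itga4 and Itgb7 and 17.7 to 21.5% for Itgam and Itgb2.

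Non-classical monocyte-like cells were rich in the α4 and β1 chains in each library that had enough of them. Itga4 stood at 470.2 CPM in DKO, 413 in IL-6 KO and 498 in TKO, a DKO to TKO ratio of 0.944 (0.813 to 1.10). Itgb1 stood at 406 CPM in DKO, 452 in IL-6 KO and 413 in TKO, a ratio of 0.984 (0.835 to 1.17). Both intervals include 1. Itgb7 stood at 161 CPM in DKO, 219.5 in IL-6 KO and 259 in TKO, a ratio of 0.623 (0.506 to 0.776). DKO macrophage-like cells had 305 CPM of Itgb1 and 25.5 CPM of Itgb7. In neutrophil-like cells both β chains were scarce, and Itgb1 stood at 19.9 CPM in DKO, 8.51 in TWT, 11.1 in IL-6 KO and 12.6 in TKO in mature ones.

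In T-like cells the DKO library was the lowest for the α4, β1 and αL chains, which serve homing and adhesion to VCAM-1 and ICAMs. Itga4 stood at 125 CPM in DKO, 220.4 in TWT, 221 in IL-6 KO and 236 in TKO, a DKO to TWT ratio of 0.567 (0.493 to 0.655). Itgal stood at 201 CPM in DKO, 325 in TWT, 282 in IL-6 KO and 321 in TKO, a ratio of 0.617 (0.550 to 0.692). Itgb1 stood at 157 CPM in DKO, 217 in TWT, 208 in IL-6 KO and 239 in TKO, a ratio of 0.722 (0.630 to 0.830). Itgb7 stood at 267 CPM in DKO, 190.5 in TWT, 247 in IL-6 KO and 302 in TKO, with a ratio of 1.40 (1.23 to 1.61) to TWT, so that DKO lay above TWT, unlike in monocyte-like cells, and below TKO, as in those cells. None of the 6 members measured in T-like cells was called between DKO and TWT, where 11.4% of measured genes were. DKO held 1000 T-like cells against 337 in TWT, with median depths of 3811 and 3755 UMIs. Mature B-like cells of DKO were likewise lowest for Itga4, at 98.3 CPM in DKO, 165 in TWT, 157 in IL-6 KO and 145 in TKO. Itgal was lowest in them too, at 44.3 CPM in DKO, 83.9 in TWT, 63.8 in IL-6 KO and 60.6 in TKO.

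2 members were called in mature B-like cells. Itgb1 stood at 65.3 CPM in DKO, 34.0 in TWT, 37.9 in IL-6 KO and 21.7 in TKO, and was called higher in DKO than in TKO, with a ratio of 3.01 (2.10 to 4.34), from 81 and 53 UMIs. It was the 1 member called of 6 measured in that comparison, where 14.5% of measured genes were called, and against TWT the ratio was 1.92 (1.39 to 2.65). Itgam stood at 26.6 CPM in DKO, 58.1 in TWT, 42.3 in IL-6 KO and 34.0 in TKO and was called lower in DKO than in TWT, the 1 member of 7, where 16.2% of measured genes were called. S100a8 and S100a9, which B cells do not make, moved with Itgam there: together they had 7553 CPM in DKO, 24146 in TWT, 15137 in IL-6 KO and 12989 in TKO in the same class. With cells marked as doublets left out, the Itgam log2 ratio of -1.10 turned to 0.80.

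Selplg, the PSGL-1 gene (ENSMUSG00000048163, chromosome 5, 113818536 to 113832644, minus strand), was the most even of the members over all kept cells. It stood at 199 CPM in DKO, 177 in TWT, 199 in IL-6 KO and 192 in TKO. In monocyte-like cells it was 229 CPM in DKO, 260.4 in TWT, 249.5 in IL-6 KO and 283 in TKO, a DKO to TWT ratio of 0.879 (0.823 to 0.939), and in mature neutrophil-like cells 544 CPM in DKO, 547 in TWT, 571 in IL-6 KO and 608 in TKO. In immature neutrophil-like cells DKO stood above the other libraries, with 106 CPM in DKO, 62.3 in TWT, 75.1 in IL-6 KO and 67.5 in TKO and a ratio of 1.71 (1.58 to 1.84). T-like cells stood at 367 CPM in DKO, 279 in TWT, 312 in IL-6 KO and 317 in TKO, a ratio of 1.32 (1.18 to 1.47). PSGL-1 works only when decorated by glycosyltransferases, whose genes are given with the related lists.

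**Figure D3:**
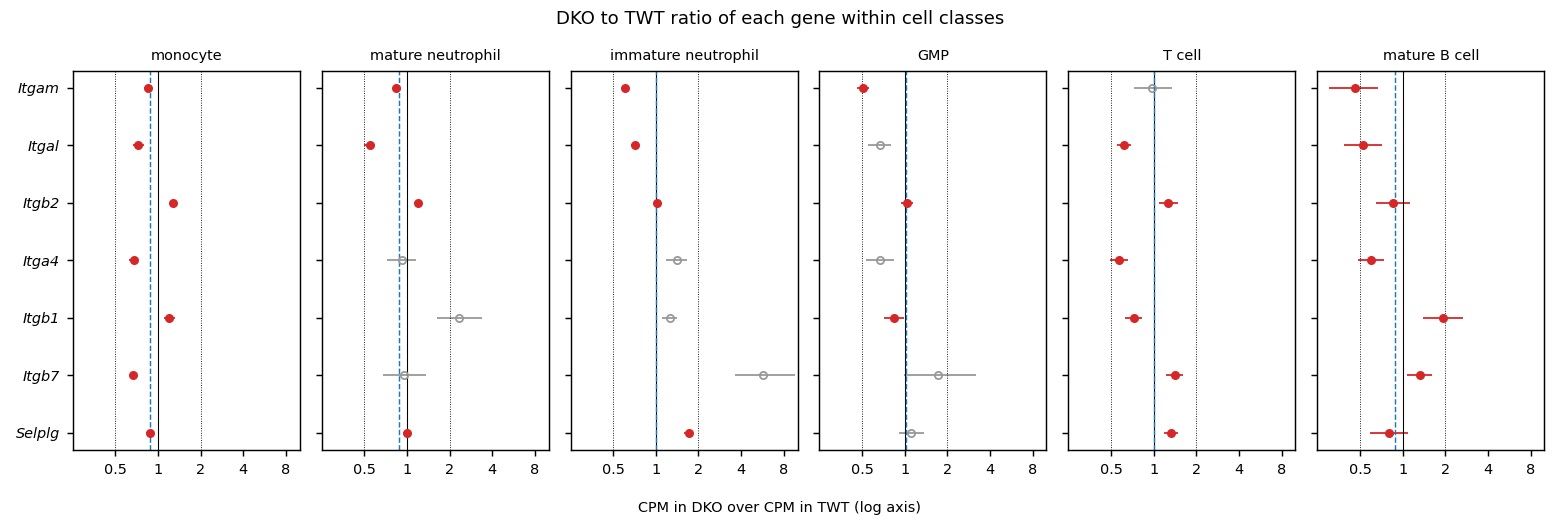
Ratio of the DKO to the TWT level (log axis) for 7 of the genes in 6 cell classes, with exact 95% intervals; GMP is the granulocyte-monocyte progenitor-like class, red points are measured by the rule, gray open points are below the 50 CPM or 30 UMI minimum, the blue dashed line is the median of all measured genes and dotted lines mark 2-fold. Itgam lies left of 1 in both neutrophil-like classes and Itgb7 and Itga4 in monocyte-like cells (0.669 and 0.674), while Itgb2 lies right of 1 there (1.28). Itgax and F11r are not drawn.

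Over the whole marrow the DKO values differed from those within classes, and the make-up of the libraries differed. Itgb1 was the 1 member of 7 measured that was called over all kept cells, with 136 CPM in DKO, 60.5 in TWT, 59.2 in IL-6 KO and 55.8 in TKO. It was higher in DKO than in TWT by a ratio of 2.25 (2.16 to 2.35) and than in TKO by 2.44 (2.34 to 2.54). Over all measured genes 11.5% were called between DKO and TWT and 10.6% between DKO and TKO, and the median log2 ratio of all measured genes to TWT was 0.12. With genes above 1% of UMIs left out of the scaling, that median became -0.11 and the share of calls that were higher went from 55.7% to 31.8%, and Itgb1 was still called. With every barcode of at least 200 detected genes kept, its log2 ratio to TWT went from 1.16 to 0.83 and the call against TWT ended. Itga4 stood at 119 CPM in DKO, 77.4 in TWT, 75.7 in IL-6 KO and 72.6 in TKO over all cells. Itgb7 stood at 111 CPM in DKO, 75.0 in TWT, 66.9 in IL-6 KO and 77.1 in TKO, and Itgb2 at 387 CPM in DKO, 262 in TWT, 268 in IL-6 KO and 307 in TKO. All of these were highest in DKO and short of 2-fold. Itgam was lowest there, at 275 CPM in DKO, 352 in TWT, 378 in IL-6 KO and 357 in TKO. In a sum over all cells, more cells of a type and more RNA per cell cannot be told apart.

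The tags of several members came from other cells in DKO than in TWT. In TWT, non-classical monocyte-like cells gave 2.14% of Itgal UMIs, 2.24% of Itga4 UMIs and 2.60% of Itgb1 UMIs. In DKO they gave 45.1%, 47.5% and 36.1%, while they held 12.1% of all UMIs there and 0.302% in TWT. This class, 16.7% of the kept DKO cells, thus supplied a large part of the Itgal, Itga4 and Itgb1 UMIs there. Of Itgb2, the other chain of LFA-1, it gave 24.8% of UMIs in DKO and 0.796% in TWT. The neutrophil-like classes gave 75.7% of Itgam and 68.0% of Itgb2 UMIs in TWT and 48.0% and 36.0% in DKO. Itgax came by 37.2% from non-classical monocyte-like and by 29.1% from macrophage-like cells in DKO, against 2.98% from each in TWT. Itgb7 came by 52.7% from monocyte-like cells in TWT and 52.0% in DKO, where that class held 10.4% and 22.5% of all UMIs, and by 0.895% and 17.6% from non-classical monocyte-like cells. In IL-6 KO and TKO non-classical monocyte-like cells gave 3.54% and 5.84% of Itgal UMIs. F11r in DKO came by 47.9% from monocyte-like, 25.6% from non-classical monocyte-like and 12.7% from macrophage-like cells.

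**Figure D4:**
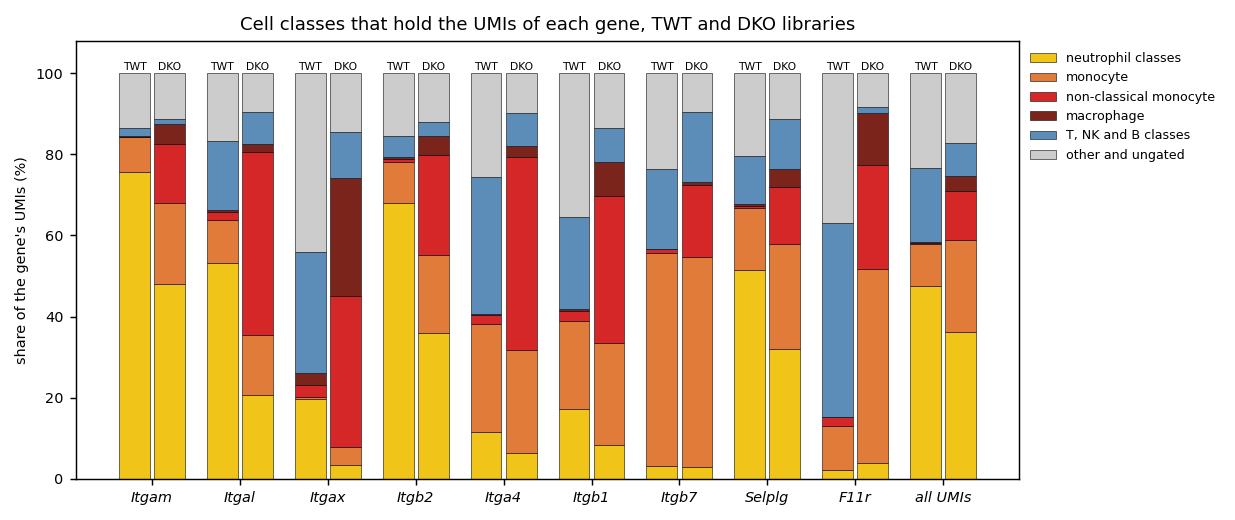
Percent of each gene's UMIs that came from each group of cell classes (stacked bars, 0 to 100%) in the TWT and DKO libraries, with all UMIs for comparison. Non-classical monocyte-like cells supply 45.1% of Itgal and 47.5% of Itga4 in DKO and 2.14% and 2.24% in TWT.

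To hold the make-up fixed, each library's class levels were weighted by the TWT share of UMIs in 18 classes. The DKO to TWT ratio of Itgb1 went from 2.25 to 1.07, and that of Itga4 from 1.54 to 0.755. Itgal went from 1.13 to 0.607, so that a gene slightly higher in the DKO marrow as a whole was lower at a fixed make-up. Itgb2 went from 1.48 to 1.08, Itgb7 from 1.47 to 0.958 and Itgax from 2.31 to 1.11. Itgam stayed lower, at 0.780 and 0.665, and Selplg near even, at 1.12 and 1.08. F11r was 14.9 times TWT at the TWT make-up and 46.0 times without it. Classes with few cells in DKO enter these sums with few UMIs, and the weighted values carry no interval.

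**Figure D5:**
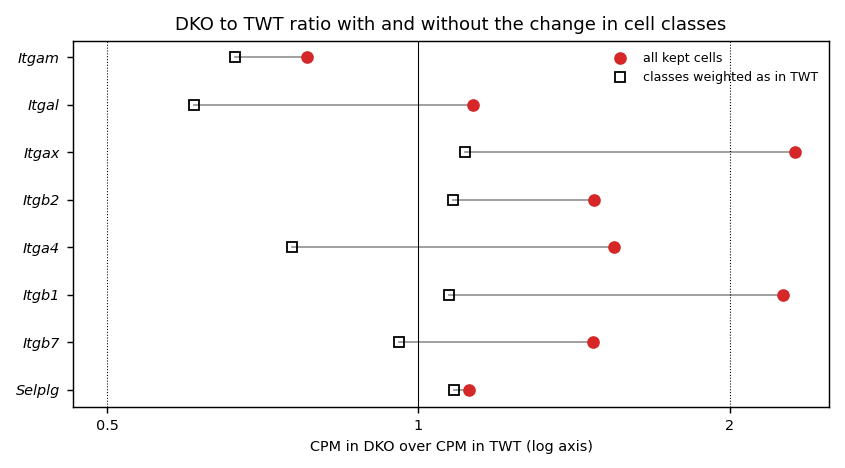
Ratio of the DKO to the TWT level over all kept cells (filled) and at the TWT make-up of classes (open), for the members other than F11r (log axis). The Itgb1 ratio goes from 2.25 to 1.07 and that of Itgal from 1.13 to 0.607.

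In monocyte-like cells the libraries labelled IL6-/- lay within 2-fold of TWT for every member measured. There, none of the 7 members measured was called between TKO and TWT, where 0.516% of all measured genes were, and none of 7 between IL-6 KO and TWT, where 0.77% were. TKO to TWT ratios there were 0.768 (0.709 to 0.833) for Itgam, 0.834 (0.747 to 0.931) for Itgal and 0.992 (0.905 to 1.09) for Itga4. They were 1.05 (0.980 to 1.12) for Itgb7 and 1.02 (0.938 to 1.10) for Itgb2. Itgam and Itgal thus lay below TWT in TKO by more than counting error. At the TWT make-up of classes the TKO to TWT ratios of the 7 members with higher counts ran from 0.856 to 1.14, and those of IL-6 KO from 0.999 to 1.07.

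3 calls fell between those libraries and TWT in smaller classes. Itgam was higher in plasmacytoid dendritic cell-like cells of TKO at 63.1 CPM than of TWT at 24.0 CPM, a ratio of 2.64 (1.61 to 4.48), where it was 1 of 7 measured members and 2.68% of genes were called. S100a8 and S100a9 stood at 13605 CPM in that class in TWT and 25151 CPM in TKO. Itgb2 was lower in pro/pre-B-like cells of IL-6 KO at 22.7 CPM than of TWT at 58.2 CPM, a ratio of 0.390 (0.264 to 0.575), 1 of 3 members where 1.16% of genes were called. The same neutrophil pair stood at 14529.9 CPM there in TWT and 8472 in IL-6 KO. Selplg was higher in erythroid-like cells of IL-6 KO at 111 CPM than of TWT at 48.0 CPM, a ratio of 2.31 (1.68 to 3.20), 1 of 6 members where 3.13% of genes were called, with the pair at 55802 and 82332.5 CPM. In all of these the neutrophil transcripts moved in the direction of the member, and their part in the result was not tested.

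Among classes of at least 50 cells, the order differed for each member. In TWT, Itgam was highest in immature neutrophil-like cells at 574 CPM, above mature neutrophil-like cells at 531 CPM and monocyte-like cells at 286 CPM, with intervals apart at each step. Itgb2 followed with mature neutrophil-like cells first at 439 CPM, then immature ones at 352 CPM and natural killer-like cells at 269 CPM, which did not differ from monocyte-like cells at 256 CPM beyond counting error. Itgal was highest in natural killer-like cells at 434 CPM, then in T-like cells at 325 CPM and mature neutrophil-like cells at 301 CPM, the last pair not apart. Itga4 was also highest in natural killer-like cells at 350.3 CPM, and T-like cells at 220.4 CPM and monocyte-like cells at 199 CPM were not apart. Itgb7 was highest in monocyte-like cells at 381 CPM and basophil or mast-like cells at 321 CPM, not apart from each other. TWT held too few non-classical monocyte-like cells for a place in this order: their 136 Itgal, 90 Itgb2, 75 Itga4 and 68 Itgb1 UMIs were among 130560 UMIs in all. Selplg was highest in mature neutrophil-like cells at 547 CPM and plasmacytoid dendritic cell-like cells at 530.2 CPM, not apart from each other. Itgax was highest in natural killer-like cells at 91.3 CPM, not apart from plasmacytoid dendritic cell-like cells at 47.9 CPM. Conventional dendritic cell-like cells, 46 in TWT or 0.677% of kept cells, were also too few for a place. They held 202 Itgb7 UMIs, 6.23% of that gene's UMIs in TWT, and 21 Itgax UMIs, 12.5%. In each of the other 3 libraries non-classical monocyte-like cells were first for Itgal, Itgb2, Itga4 and Itgb1, with Itga4 in IL-6 KO not apart from natural killer-like cells.

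Across the 44 profiles, Pearson r between chains that form a dimer was 0.82 for Itgam and Itgb2, 0.70 for Itgal and Itgb2, 0.50 for Itgax and Itgb2, 0.63 for Itga4 and Itgb1 and 0.64 for Itga4 and Itgb7. Chains that do not pair could be as close, such as Itgal and Itgax at 0.74 or Itgb1 and Itgb7 at 0.69. The genes most like Itgam were Pgd (r = 0.95) and Pygl (r = 0.95), enzymes of the pentose phosphate path and of glycogen breakdown. Those most like Itgb2 were Myo1f (r = 0.95) and Apobr (r = 0.94), the former a myosin of leukocytes. Those most like Itga4 were Extl3 (r = 0.91) and Limd1 (r = 0.88), of those most like Itgb1 Fam105a is given (r = 0.86), and most like Itgb7 Gpr183 (r = 0.86) and Capn2 (r = 0.85), of which Gpr183 is a receptor that guides B cells. Those most like Itgal were Gfpt1 (r = 0.85) and Sept9 (r = 0.85), most like Itgax Cd244 (r = 0.80) and Runx2 (r = 0.77), and most like Selplg Fyb (r = 0.84) and Prex1 (r = 0.83), Fyb being an adaptor that links receptors to integrin activation. The profiles share libraries, depth and classes, and these coefficients are descriptions.

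Related adhesion genes were followed as 6 lists of 139 genes in monocyte-like cells, where the median log2 ratio of DKO to TWT over all measured genes was -0.19 and 12.8% were called. Of 26 selectins, ligand cores and glycosyltransferases 9 were measured, 3 were lower and none higher, with a median of -0.44. Among the lower ones, C1galt1c1, the chaperone of core 1 O-glycan synthesis, was 61.4 CPM in DKO, 139.8 in TWT, 142 in IL-6 KO and 159 in TKO, and Spn, the sialomucin CD43, 37.1 CPM in DKO, 82.7 in TWT, 83.1 in IL-6 KO and 86.0 in TKO. Of 16 integrin ligands 4 were measured and 2 were higher, with a median of 0.65. Spp1, osteopontin, an α4 and αv integrin ligand, was 243 CPM in DKO, 10.0 in TWT, 7.86 in IL-6 KO and 13.2 in TKO, a ratio of 24.2 (18.1 to 33.3). Icam1, the ligand of LFA-1 and Mac-1, was 58.0 CPM in DKO, 23.2 in TWT, 13.1 in IL-6 KO and 19.4 in TKO, a ratio of 2.50 (2.04 to 3.09).

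Of 25 junctional and transmigration genes 7 were measured and 2 were higher, with a median of 0.44. Jaml, a relative of JAM-A on leukocytes, was 71.0 CPM in DKO, 30.1 in TWT, 26.2 in IL-6 KO and 27.4 in TKO, and the tetraspanin Cd9 61.7 CPM in DKO, 28.3 in TWT, 45.9 in IL-6 KO and 47.0 in TKO. Jaml and F11r were thus both higher in DKO monocyte-like cells. Of 41 integrin activation and tail adaptor genes 27 were measured, and 1, Rasgrp4, was lower, with a median of -0.10 close to that of all genes. Rap1b, a GTPase that switches integrins on, was 609.8 CPM in DKO, 341 in TWT, 362 in IL-6 KO and 337 in TKO, a ratio of 1.79 (1.69 to 1.89) short of 2-fold. Of the 20 other integrin subunits 1 was measured: Itga1, the collagen-binding α1 chain, was 17.4 CPM in DKO, 107 in TWT, 88.8 in IL-6 KO and 103 in TKO, lower in DKO with a ratio of 0.163 (0.141 to 0.189). None of the 6 measured of 14 sheddases and proteases was called, with a median of -0.28.

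Over all kept cells, where 11.5% of genes were called and the median of all was 0.12, fewer list genes passed. Of 26 measured activation genes 2 were higher in DKO, among them Rap1b at 535 CPM in DKO, 226 in TWT, 235 in IL-6 KO and 242 in TKO, with a list median of 0.20. Of 3 measured ligands Spp1 was higher, at 294 CPM in DKO, 11 in TWT, 7.39 in IL-6 KO and 9.02 in TKO, with a median of 0.89. The 8 measured selectin genes had a median of -0.15, with 1 lower and none higher. Of 6 measured sheddases Adam8, a membrane metalloprotease of neutrophils, was lower, at 47.5 CPM in DKO, 101 in TWT, 112 in IL-6 KO and 74.6 in TKO, with a median of -0.54. None of 9 junctional genes, with a median of 0.16, and not the 1 other integrin, Itgb2l, was called. As for the members, make-up and level within cells cannot be told apart in these sums.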

How the data were processed

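Bone marrow cells of 4 mouse genotypes were profiled with the 10x Genomics 3′ v3 chemistry, 1 library per genotype. The deposited matrices contain UMI counts, whole numbers for each gene in each barcode, that the authors made with Cell Ranger (3.0.2 in the matrix header) on mm10, and Seurat 4 is named in the submitters' processing notes. No normalization had been applied to these counts. The labels give total marrow of mice 12 months old, while the methods name mononuclear cells.

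Barcodes had to show 500 to 4000 detected genes and no more than 15% of UMIs from mitochondrial genes. Each cell was placed in the class whose markers had the highest mean score, where at least 3 markers were detected and the lead over the next class was at least 0.1; this gate was settled on markers after the files were seen. Doublets were kept, and Scrublet, in scanpy 1.11.5, marked 1.54 to 2.28% of cells, which an alternative left out. UMIs were summed per class and library, in classes with at least 50 cells, and divided by all UMIs of the class. Log2 ratios used a pseudocount of 1 CPM. Intervals are exact at 95%, cover counting error only, and PCR or animal variation is not in them. A share of 0 has a limit of 3 counts. The depth was 61292684 to 85145074 UMIs per library, so that low genes such as F11r outside DKO rest on few UMIs. With a single library each, genotypes could not be tested.

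The members and the 6 lists were chosen with earlier results of these data known. All members are named. For other genes the rule took, from each list, the 2 to 4 measured genes with the largest absolute log2 ratio of DKO to TWT. For each member it took the 2 genes of highest Pearson r. Some genes that this rule takes in are not reported here. Alternatives changed 1 choice at a time: the cells kept, doublets, the gate, the scaling, the pseudocount, free RNA, the minimum level, the fold, the mean over cells, the thinning and the weighting of classes. 2 were added after the data were seen: a wider margin of the gate, and the monocyte and macrophage classes merged. Promoter sequences were found for 6 of the 9 members, and those of Itgal, Itgb2 and Selplg were not analysed here. The steps were tested on simulated data and run with Python 3.11.15, numpy 2.4.6, scipy 1.17.1 and pandas 2.3.3.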

Additional observations from a re-analysis of the deposited data

Results flagged for a closer look

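Barcodes with over 4000 detected genes lie outside the comparisons of the report, and they numbered 275 in DKO, 646 in TWT, 422 in IL-6 KO and 588 in TKO. In these barcodes 4 of the 7 measured members reached at least 2 times their TWT level in DKO, beside 12.4% of 3294 measured genes. Itgam stood at 173 CPM in DKO, 42.5 in TWT, 41.4 in IL-6 KO and 34.1 in TKO. Itgal stood at 115.9, 36.6, 28.4 and 30.1 CPM in that order. Itgb2 stood at 258, 39.3, 39.7 and 42.8 CPM, and Itgb7 at 129.8, 61.7, 41.7 and 73.4 CPM. Itgam, Itgal and Itgb2 reached the minimum of 50 CPM only in DKO. They were thus counted as measured through the library where they were high, and the count of members is no support for a difference. F11r stood at 37.4 CPM in DKO and 1.39 CPM in TWT, under the minimum of 50 CPM. The make-up of these barcodes in cell types and doublets was not tested.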

How the results depend on the processing

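No paired analysis was possible because each genotype has 1 library. The number of members 2-fold apart between DKO and TWT over all cells, 1 as reported, was 0 with every barcode of at least 200 genes, 2 with scaling without genes above 1%, 3 with no CPM minimum, 2 at 1.5-fold and 2 by the mean of per-cell CPM. Against TKO it was 2, 3, 2 and 2 under the last 4 of these. Genes higher and lower than in TWT were 186 and 250 of 2840 measured with barcodes of at least 200 genes. They were 143 and 306 of 3658 under the other scaling and 543 and 1011 of 13320 with no minimum. By the mean of cells they were 192 and 211 of 2950. Against TKO they were 149 and 287 of 3633, 566 and 896 of 13190, and 180 and 217 of 2946 under those last 3. At 1.5-fold 32.2% of measured genes were apart from TWT and 27.2% from TKO. With no CPM minimum it was 2 in monocyte-like, 1 in mature and 2 in immature neutrophil-like and 1 in T-like cells against TWT. At 1.5-fold against TWT, 1 member was apart in mature and 2 in immature neutrophil-like, 2 in T-like and 4 in mature B-like cells. In these classes 39.9%, 28.3%, 38.6% and 39.6% of all measured genes were that far apart. Against TKO there were 2 members in monocyte-like, 3 in non-classical monocyte-like and 4 of 7 in T-like cells, beside 30.7%, 33.0% and 27.7% of genes. With free RNA subtracted, 1 member was apart from TWT in immature neutrophil-like and 0 in mature B-like cells. Genes higher and lower were 118 and 62 of 1976 and 69 and 496 of 3100. In mature B-like cells 0 members were also apart with barcodes of at least 200 genes, beside 66 and 406 of 3094 genes. With a pseudocount of 10 CPM there were 0 members, beside 41 and 311 of 3084 genes. The gate on thinned cells gave 2 members there, beside 60 and 446 of 3086 genes. The log2 ratio of Itgb1 over all cells, 1.16, was 0.83 with barcodes of at least 200 genes, 1.02 under the other scaling, 1.05 with a pseudocount of 10 CPM, 1.48 by the mean of cells and 0.095 with classes weighted. That of F11r in monocyte-like cells was 3.36 against TWT and 3.40 against TKO with a pseudocount of 10 CPM. Its share in DKO monocyte-like cells was 10.3% at 1000 UMIs and 56.9% with no thinning. Itgam in mature B-like cells turned from -1.10 to 0.80 with doublets removed. Except where an alternative's own construction sets it, the cause was not tested.

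Of 672 other recomputed values, 519 moved by less than their counting interval and 152 by more, and 1 that had been called, that of Itgam, turned its direction. Called or not, 38 of 675 recomputed log2 ratios of members changed sign, over 22 of the 81 ratios, with 6 of them for Itgam in T-like cells (-0.032 as reported). Depth limits F11r outside DKO and Itgax outside macrophage-like and non-classical monocyte-like cells. Without a second library per genotype, differences between animals cannot be told apart from those between genotypes.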
